A study of Mus musculus with 6 samples.

Results

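The genes of the translation initiation factors were followed in resting and CpG-stimulated mouse B cells. Members were the genes whose symbol is Eif followed by a digit from 1 to 6, leaving out the eIF2 kinases (Eif2ak), the eIF5A genes and the Y-linked Eif2s3y, with a value over -0.76 log2 CPM (reads of a gene scaled to the library total) in at least 3 samples. Of 52 such symbols 49 passed this filter, as did 11233 of all 23420 listed genes. The label does not hold for 4 of the members. Eif2c1 to Eif2c4 are older symbols of Ago1 to Ago4, which encode the Argonaute proteins that carry small RNAs. The other 45 genes encode initiation factors, their relatives or their binding proteins, and the Argonaute genes are described apart from them.

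B cells were purified with beads from spleens of WT BALB/c mice, 7 to 11 weeks old. They were cultured for 4 hours either with 10 μg/mL CpG ODN 1826, a synthetic DNA that activates TLR9, or without stimulus, with 10 M cells at a density of 10 M/mL. Each group has 3 samples, numbered 1, 2 and 3, and the labels name 3 mice as their source. Which mouse gave which sample is not stated. Numbers 1 and 2 are labeled female and number 3 is labeled male. The cultures are bulk samples of splenic B cells that were not split by subset. In them a shift between subsets and a change within each cell cannot be told apart. Nor can fewer cells of a type be told from less RNA per cell.

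Initiation brings the small ribosomal subunit to an mRNA and to its start codon. eIF2 delivers the initiator tRNA with GTP, and eIF2B recharges eIF2 with GTP, a step that is blocked when eIF2 kinases phosphorylate eIF2. eIF4E binds the cap, eIF4G is the scaffold and eIF4A the helicase of the eIF4F complex, while the 4E-BPs hold eIF4E back until mTOR phosphorylates them. eIF3 is a large assembly that bridges eIF4F and the small subunit, eIF1 and eIF1A govern scanning and start codon choice, and eIF5B joins the large subunit, which eIF6 otherwise keeps apart. Resting lymphocytes make little protein, and activation is known to raise their translation.

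Purity and labels were examined first. Of 11 B cell markers 9 were listed, and all 9 had a mean over -0.76, the worth of 10 reads, with Cd79b, a chain of the B cell receptor complex, the highest at 9.48 log2 CPM. After CpG 3 of the 9 were raised and 5 lowered, beside 37.6% and 36.7% of all genes tested, and their sum was 3401 CPM with CpG and 4419 CPM without. Of 6 T cell markers in the files, Lck, a kinase, was alone over this level (6.72), while the CD3 chains, Cd4 and Cd8a were not. The summed T cell list, nearly all of it Lck, took 133 CPM with CpG and 84.5 CPM without. The NK list (1 of 4 over the level, Prf1 the highest) and the myeloid list (3 of 5, Lyz2 the highest) summed to at most 9.31 CPM in any sample. The means of both sums were lower with CpG, at 2.12 against 3.18 CPM (NK) and 4.22 against 6.79 CPM (myeloid, with overlapping samples). Prf1, Csf1r and Cd14 fell (log2FC -1.57, -1.61 and -1.73), while Itgam and Lyz2 did not pass (log2FC -0.07 and -0.21). Klrb1c of the NK list, which missed the filter, went the other way. It was at -0.84, 0.23 and 0.23 log2 CPM with CpG and at -4.27, -4.79 and -4.90 without. Ncr1 and Nkg7 stayed under the worth of 3 reads (-2.34) in each sample. The pDC list (3 of 4), led by Tcf4, which B cells also express, took 130 CPM with CpG and 255 CPM without. In it Tcf4 and Ccr9 fell (log2FC -1.24 and -0.94), while Bst2 rose by a log2FC of 0.92 and Siglech missed the filter. The part of these genes in the results was not tested.

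Samples with number 2 stood apart. Erythroid genes (4 of 6 over the level, Beta-s the highest) summed to 4912 CPM in stimulated and 3845 CPM in unstimulated sample 2, and to 384 to 611 CPM in the other 4 samples, while Hba-a1 and Hba-a2 stayed at -5.15, the value taken for a gene without reads in any sample. Xist, expressed from the inactive X chromosome, was at 11.85 and 11.65 log2 CPM in number 1, at 6.33 and 6.28 in number 2 and at 0.85 and 1.34 in number 3 (stimulated, then unstimulated). Ddx3y, on the Y chromosome, was at -5.23 and -4.81 in number 1, at 2.27 and 2.15 in number 2 and at 7.48 and 8.10 in number 3. Number 2, labeled female, was thus intermediate for both genes. The files also hold values under -5.15, down to -7.93 in both samples of number 1, which an adjustment tied to the number would leave, and the cause of the intermediate values was not tested. Counts without number 2 are therefore given beside the main ones.

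Known targets of the stimulus changed. Nfkbia, which encodes the NF-κB inhibitor IκBα, rose from a mean of 8.41 to 10.24 log2 CPM (SD 0.06 and 0.05, n = 3 each), and Tnfaip3, Cd69 and Myc had log2FC values of 0.67, 0.61 and 1.05. Cd86, a costimulatory ligand, fell by 0.80 on the log2 scale at this time.

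All genes that passed the filter were compared between the groups with limma, with FDR values over all 11233 genes. At an FDR under 0.05, 29 of the 49 members (59.2%) were raised by CpG, beside 37.6% of all genes tested, and 8 members (16.3%) were lowered, beside 36.7%. With a log2FC over 1 as well, 10 members (20.4%) were raised, beside 15.8%. With a log2FC under -1, 2 members were lowered, beside 15.3%, and both are Argonaute genes. The groups did not overlap in 39 members, with the stimulated samples on top in 30, beside 39.1%, and at the bottom in 9, beside 38.6%. Of the 45 members other than Argonaute genes, 29 were raised, 5 were lowered and 11 did not pass. Without both samples of number 2, 30 of the 49 were raised (61.2%, beside 36.5% of all genes in that fit) and 8 lowered (16.3%, beside 35.2%), and 13 exceeded a log2FC of 1, as Eif2b1 (1.06), Eif3b (1.01) and Eif4g1 (1.001) joined the 10.

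The median log2FC was 0.36 over the 49 members and 0.50 without the Argonaute genes, while over all genes tested it was 0.0033. In the deposited values samples of a group varied little. The median SD over the members was 0.09 with CpG and 0.08 without, against 0.13 and 0.11 over all genes. These SDs were not compared at equal levels, and all genes include lowly expressed ones down to the filter. Whether an adjustment tied to the replicate number entered these SDs, and the SE and FDR values, was not tested. The authors' normalization gives each sample nearly the same total, so a change in RNA content per cell cannot be seen.

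**Figure D1:**
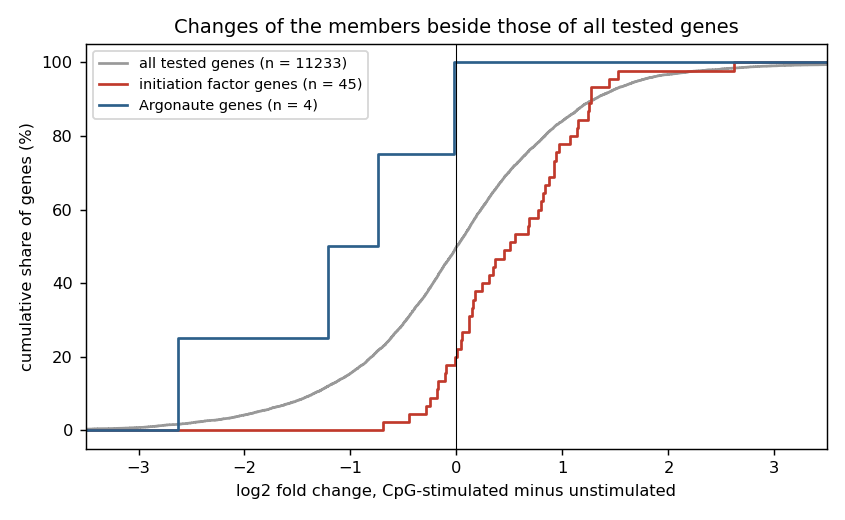
Cumulative share of genes (vertical axis, %) at or below each log2 fold change, CpG-stimulated minus unstimulated (horizontal axis). Curves are for the 45 members other than Argonaute genes (labeled initiation factor genes), the 4 Argonaute genes and all 11233 tested genes. At the middle of the vertical axis the curve of the 45 lies to the right of all genes, with medians of 0.50 and 0.0033. There the Argonaute curve lies to the left.

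**Figure D2:**
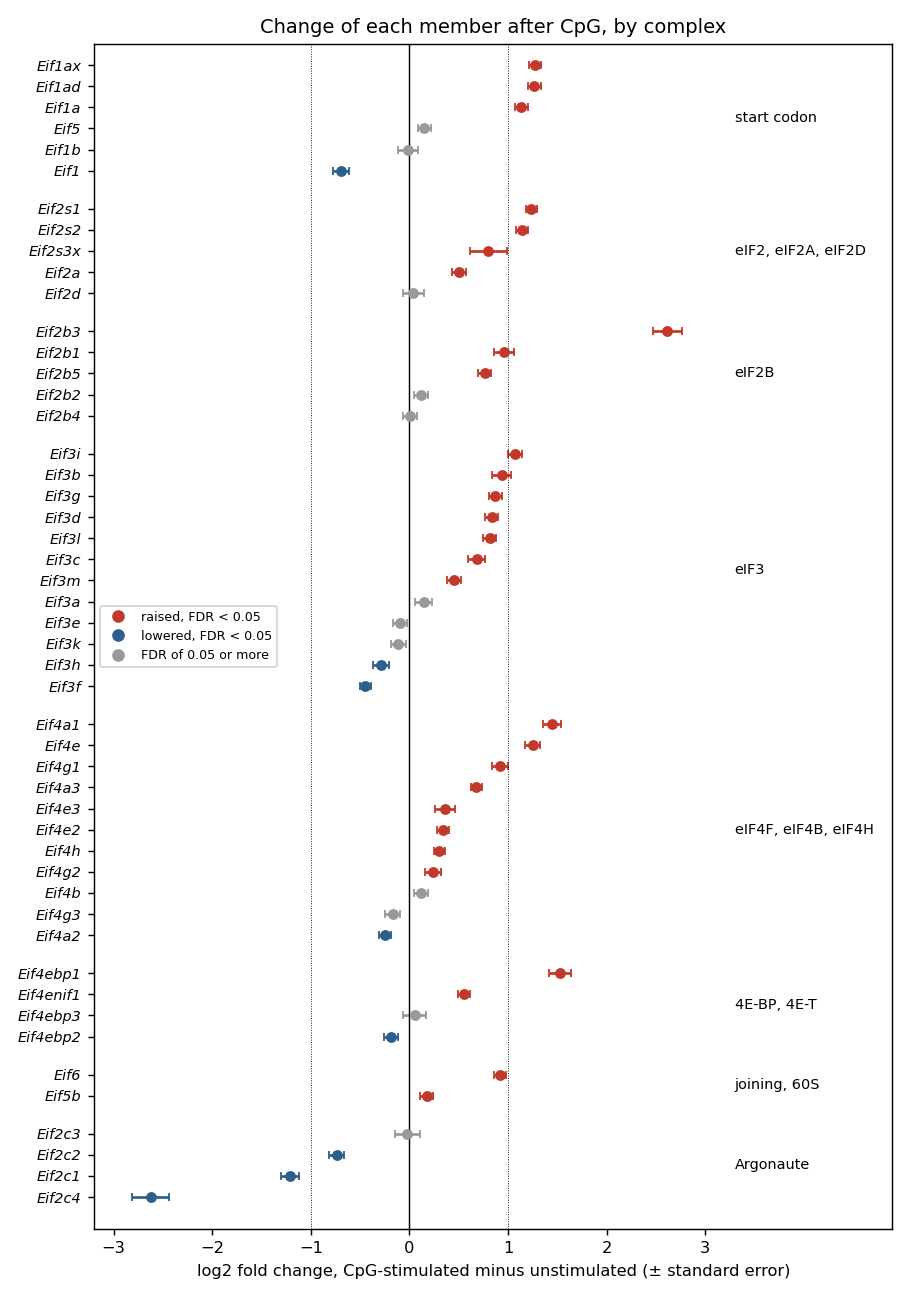
Log2 fold change of each member, CpG-stimulated minus unstimulated (points, with standard errors as bars), grouped by complex and colored by the limma call. Eif2b3 stands farthest to the right at 2.62 and Eif2c4 farthest to the left at -2.63, and eIF2B, eIF3 and eIF4F each hold members that were raised and members that did not pass.

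The 3 subunit genes of eIF2 were all raised. Eif2s1, the α subunit that eIF2 kinases phosphorylate, was at 8.52, 8.58 and 8.46 log2 CPM in stimulated samples 1 to 3 and at 7.32, 7.28 and 7.26 in unstimulated samples, which gave a log2FC of 1.24 ± 0.06 (SE here and below, limma FDR = 6.02e-08). Eif2s2, the β subunit, was at 8.83, 8.83 and 8.74 with CpG and at 7.64, 7.73 and 7.60 without (log2FC 1.15 ± 0.06). In both genes the groups lay far apart and the samples of a group close together. Of the stretches of 75 bases of Eif2s2, 22.4% also occur in transcripts of other genes.

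Eif2s3x, the X-linked gene of the γ subunit, which binds GTP and the initiator tRNA, was at 8.76, 8.41 and 8.09 log2 CPM with CpG and at 7.97, 7.63 and 7.27 without. In both groups number 1 was highest and number 3, labeled male, lowest, and the groups did not overlap. The log2FC was 0.80 ± 0.19 (limma FDR = 0.00304, but 0.0906 without the filter on low values), and with the replicate number as a block its SE was 0.05. Of its stretches of 75 bases, 35.7% also occur in transcripts of other genes, so reads may not have been told apart there. Eif2a and Eif2d, which encode factors that deliver tRNA on other routes, had log2FC values of 0.50 ± 0.07 and 0.04 ± 0.11, and Eif2d did not pass (limma FDR = 0.743).

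The 5 subunit genes of eIF2B changed unequally. Eif2b3, the γ subunit, on chromosome 4 of GRCm38 (mm10) from 117019402 to 117087306 on the plus strand, had the highest log2FC of all members. It was at 6.47, 6.03 and 6.22 log2 CPM with CpG and at 3.95, 3.44 and 3.47 without, worth 1160 to 1570 reads against 193 to 275. The lowest stimulated sample was well above the highest unstimulated one. Its log2FC was 2.62 ± 0.15 (limma FDR = 1.92e-07), a 6.14-fold rise, which exceeded 98.5% of the genes tested and ranged from 2.50 to 2.78 when single samples were dropped.

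Among the other eIF2B genes, Eif2b1 (α) and Eif2b5 (ε, the catalytic subunit) rose by log2FC values of 0.96 ± 0.10 and 0.77 ± 0.06. Eif2b2 (β) was at 5.68 with CpG and 5.56 log2 CPM without (SD 0.06 and 0.04, n = 3 each) and did not pass (limma FDR = 0.137), although its groups did not overlap. Eif2b4 (δ) was at 5.22 and 5.21 (SD 0.04 and 0.09, limma FDR = 0.944). Per length of annotated exons, Eif2b3 was the lowest of the 5 in unstimulated cells, at 0.92 log2 CPM per kb, where the others ranged from 3.09 to 4.93. With CpG it was at 3.54 ± 0.22 (SD, n = 3), still the lowest, next to Eif2b4 at 3.84 ± 0.04. This order with CpG rests on the annotated exon lengths, 6520 bases for Eif2b3 and 1885 to 2599 for the others. Not divided by length, Eif2b3 was at 6.24 log2 CPM with CpG, above the others except Eif2b5 (7.07).

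Of the eIF3 complex 12 subunit genes passed the filter, of which 7 were raised (58.3%, beside 37.6% of all genes tested), 2 were lowered (16.7%, beside 36.7%) and 3 did not pass. Eif3i, a core subunit, was at 8.28, 8.40 and 8.25 log2 CPM with CpG and at 7.24, 7.34 and 7.14 without, and its log2FC of 1.07 ± 0.07 (limma FDR = 3.99e-07) was the highest of the complex. Eif3b and Eif3g, which join Eif3i in one module, followed with 0.94 ± 0.10 and 0.87 ± 0.06. Eif3d, a subunit that can bind the cap, rose by a log2FC of 0.83, Eif3l by 0.82, Eif3c by 0.68 and Eif3m by 0.45. Exons of Eif3d overlap Gm17638 on the opposite strand over 43.3% of their bases, and 21.3% of the 75-base stretches of Eif3m occur in other transcripts.

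The remaining subunits did not follow. Eif3a, the scaffold of the complex, was at 9.98, 9.70 and 9.86 log2 CPM with CpG and at 9.83, 9.67 and 9.60 without, with overlapping groups and a log2FC of 0.14 ± 0.09 (limma FDR = 0.166, and 0.0467 with the replicate block). Eif3e and Eif3k had log2FC values of -0.10 and -0.11 and overlapped as well (limma FDR = 0.247 and 0.199). Without stimulated sample 2 all 3 of these genes passed, with FDR values of 0.0253, 0.0231 and 0.0114 in limma. Without both samples of number 2 only Eif3k passed (FDR = 0.0394), and Eif3a (0.0776) and Eif3e (0.0786) did not.

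Eif3f and Eif3h, whose products form a pair in the complex, were lowered. Eif3f, on chromosome 7 from 108934417 to 108942951 on the plus strand, was at 8.52, 8.63 and 8.53 log2 CPM with CpG and at 9.02, 9.02 and 8.97 without. The groups did not overlap, and Eif3f fell by 0.45 (SE 0.06, limma FDR = 5.91e-05). Eif3h was at 8.28, 8.59 and 8.35 with CpG and at 8.65, 8.74 and 8.70 without, and fell by 0.29 (SE 0.08, limma FDR = 0.00924, but 0.0861 without the filter on low values). Here stimulated sample 2 came closest to the unstimulated samples, and 16.7% of the 75-base stretches of Eif3h occur in other transcripts.

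**Figure D3:**
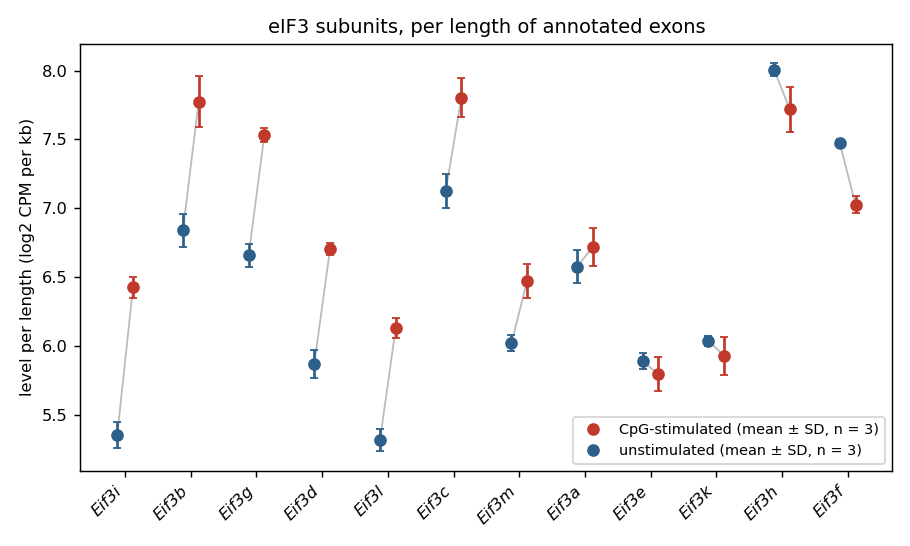
Level of each of 12 eIF3 subunit genes per length of annotated exons (log2 CPM per kb, points with bars for mean ± SD, n = 3), unstimulated and CpG-stimulated, ordered by log2 fold change. Subunits on the left rose and Eif3h and Eif3f on the right fell, and the span from the lowest to the highest gene was 2.69 before and 2.01 after CpG.

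Per length the order of the subunits shifted. In unstimulated cells Eif3h (8.01 log2 CPM per kb) and Eif3f (7.47) led, and Eif3i (5.35 ± 0.10, SD) and Eif3l (5.31 ± 0.08) were lowest and did not differ beyond their SD. With CpG Eif3c (7.80), Eif3b (7.77) and Eif3h (7.72) were highest, within SDs of 0.14 to 0.19. Eif3e was lowest at 5.79 ± 0.12 (SD), and Eif3k followed within its SD at 5.93 ± 0.14. The SD over the 12 genes was 0.83 before and 0.73 after CpG. Lengths are unions of all annotated exons, which need not be those used in B cells. The eIF3j subunit could not be read, since Eif3j1 was at the value of a gene without reads in each of the 6 samples and Eif3j2 reached at most -3.82, under the worth of 3 reads (-2.34). These genes resemble each other, with 37.7% of the 75-base stretches of Eif3j1 found in other transcripts and 87.4% of those of Eif3j2. The third symbol that was left out, Eif4e1b, an oocyte relative of Eif4e, was also at the value of a gene without reads throughout.

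Each gene of the eIF4F core was raised. Eif4a1, the helicase, on chromosome 11 from 69666936 to 69672423 on the minus strand, was at 11.20, 10.86 and 11.11 log2 CPM with CpG and at 9.67, 9.57 and 9.60 without (log2FC 1.44 ± 0.09, limma FDR = 3.08e-07). Eif4e, the cap-binding protein, was at 8.37, 8.36 and 8.23 against 7.09, 7.17 and 6.93 (log2FC 1.25 ± 0.08, limma FDR = 2.46e-07). Eif4g1, the scaffold, was at 10.31, 10.00 and 10.23 against 9.33, 9.24 and 9.21 (log2FC 0.92 ± 0.08, limma FDR = 4.4e-06). The groups did not overlap in these genes, and stimulated sample 2 was the lowest of its group in each but Eif4e. Per length, Eif4a1 was the highest member with CpG, at 8.94 ± 0.18 log2 CPM per kb (SD, n = 3), and Eif1 was the highest without, at 9.01 ± 0.10. Of the 75-base stretches of Eif4a1, 62.9% also occur in other transcripts, led by the pseudogene Eif4a-ps4.

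Relatives of the core genes changed less or fell. Eif4a2, which encodes a closely similar helicase, was at 9.09, 9.14 and 8.98 log2 CPM with CpG and at 9.31, 9.32 and 9.32 without. Its groups did not overlap, and it fell by 0.25 (SE 0.06, limma FDR = 0.00483). Exons of Eif4a2 overlap genes on the opposite strand, mostly Rfc4 (log2FC 0.56), over 15.2% of their bases. Per length, Eif4a1 made up 60.3% ± 0.93 of both genes together without and 82.9% ± 2.38 with CpG (SD, n = 3). Eif4a3, the helicase of the exon junction complex, rose by a log2FC of 0.68 ± 0.06.

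The cap-binding relatives Eif4e2, known as a repressor, and Eif4e3 had log2FC values of 0.34 ± 0.06 and 0.36 ± 0.10, both past the threshold. Eif4g2, a scaffold relative without a site for eIF4E, had a log2FC of 0.24 (limma FDR = 0.0218). This call was lost without stimulated sample 1 or 3 or unstimulated sample 1 or 2, with FDR values from 0.0514 to 0.0862. Eif4g3, another scaffold gene, had a log2FC of -0.17 and groups that did not overlap (limma FDR = 0.0592, and 0.0143 with the replicate block). The helicase cofactors Eif4h and Eif4b had log2FC values of 0.30 ± 0.06 and 0.12 ± 0.07, of which Eif4b did not pass (limma FDR = 0.157).

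**Figure D4:**
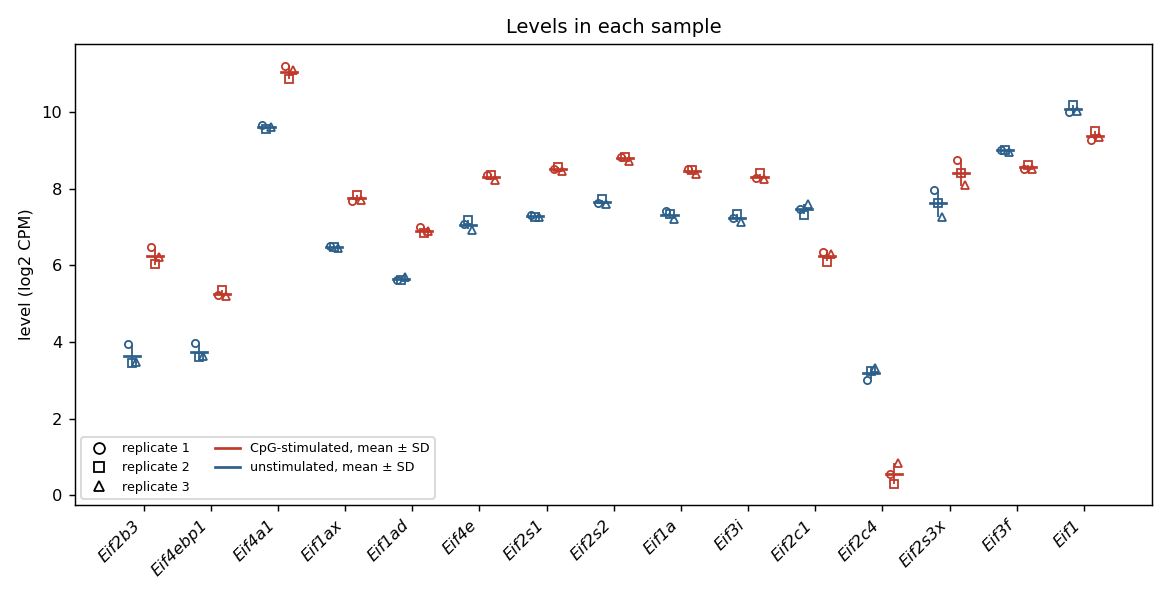
Level (log2 CPM) in each sample, with mean and SD per group, for the 12 members with a log2 fold change over 1 or under -1 and for Eif2s3x, Eif3f and Eif1. CpG-stimulated and unstimulated samples do not overlap in these 15 genes, and in Eif2s3x, where they come closest, replicate 1 is highest in both groups.

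Genes that bind eIF4E also differed. Eif4ebp1, on chromosome 8 from 27260329 to 27276674 on the plus strand, encodes 4E-BP1 and was at 5.23, 5.36 and 5.20 log2 CPM with CpG and at 3.97, 3.60 and 3.63 without (log2FC 1.53 ± 0.11, limma FDR = 8.28e-07). Eif4ebp2, its relative, was at 6.75, 6.59 and 6.69 with CpG and at 6.95, 6.81 and 6.82 without, and fell by 0.19 (SE 0.07, limma FDR = 0.0315). The groups did not overlap in either gene, but the call of Eif4ebp2 was lost without stimulated sample 2 or 3 or unstimulated sample 1 (FDR from 0.0692 to 0.119) and without both samples of number 2 (FDR = 0.071). Per length, Eif4ebp1 took 15.3% of the 4E-BP genes without and 35.6% with CpG, Eif4ebp2 50.8% and 36.0%, and Eif4ebp3 33.9% and 28.4%. Eif4ebp3 had a log2FC of 0.05 (limma FDR = 0.684), but 67.3% of its exon bases lie in other gene models on the same strand. Its level, and with it each of these shares, is therefore uncertain. Eif4enif1, which encodes the eIF4E transporter 4E-T, rose by a log2FC of 0.55 ± 0.06.

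Among the genes for scanning and the start codon, eIF1 and eIF1A moved in opposite directions. Eif1, on chromosome 11 from 100319885 to 100322096 on the plus strand, guards the accuracy of start codon choice and was at 9.26, 9.52 and 9.35 log2 CPM with CpG and at 10.01, 10.19 and 10.02 without. The groups did not overlap, and Eif1 fell by 0.70 (SE 0.08, limma FDR = 3.05e-05), more than any other of the 45 genes. Of its 75-base stretches 25.6% occur in other transcripts. Its relative Eif1b was at 4.85 with CpG and 4.86 without (SD 0.10 and 0.17, n = 3 each, limma FDR = 0.902).

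The eIF1A genes rose. Eif1ax was at 7.69, 7.84 and 7.72 log2 CPM with CpG and at 6.51, 6.48 and 6.45 without (log2FC 1.27 ± 0.06, limma FDR = 7.76e-08). Eif1a was at 8.52, 8.49 and 8.37 against 7.42, 7.34 and 7.22 (log2FC 1.14 ± 0.07). Eif1ad, named for a domain like that of eIF1A, was at 7.00, 6.84 and 6.89 against 5.61, 5.62 and 5.70 (log2FC 1.27 ± 0.07). None of these groups overlapped. Exons of Eif1ad overlap Banf1 on the opposite strand over 15.3% of their bases, and Banf1 had a log2FC of 1.30. Whether reads were counted by strand is not given in the sources used here. Eif5, which triggers GTP hydrolysis on eIF2, had a log2FC of 0.15 (limma FDR = 0.0656), which passed with the replicate block (0.0449), without stimulated sample 2 (0.0236) and without both samples of number 2 (0.0142).

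At the joining of the subunits, Eif6 was at 8.01, 7.94 and 7.97 log2 CPM with CpG and at 7.14, 7.00 and 7.03 without, with no overlap (log2FC 0.92 ± 0.06, limma FDR = 4.49e-07). Eif5b had a log2FC of 0.18 (limma FDR = 0.0384), a call lost without stimulated sample 1 or 3 or unstimulated sample 2 or 3 (FDR from 0.0537 to 0.149). Exons of Eif5b overlap Rev1 (log2FC 0.42) on the opposite strand over 16.8% of their bases.

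The difference between paired genes, as log2 CPM of one minus the other in each sample, was compared between the groups for 11 pairs. Most pairs are relatives, but Eif5 with Eif5b and Eif2s1 with Eif2a are alike in name and encode factors with different roles. Eif4a1 minus Eif4a2 was 2.11, 1.72 and 2.14 with CpG and 0.36, 0.26 and 0.28 without, a change of 1.69. Eif4ebp1 minus Eif4ebp2 changed by 1.72, Eif4g1 minus Eif4g3 by 1.09 and Eif4e minus Eif4e2 by 0.91. Eif1 minus Eif1b changed by -0.68. In 9 of the 11 pairs the groups did not overlap. Among single genes such separation was common as well (39.1% upward and 38.6% downward), so this count says little about the pairs. An exact two-sided permutation test gave each of the 9 pairs p = 0.1, the smallest that 3 samples against 3 allow, or 0.122 after adjustment over the pairs, so none could pass. The groups overlapped for Eif1a minus Eif1ax (change -0.14, exact permutation p = 0.2) and Eif5 minus Eif5b (change -0.02, exact permutation p = 0.8). As differences of linear CPM both changes were upward, by 65.7 (exact permutation p = 0.1) and 32.2 (exact permutation p = 0.3). These tests leave out the replicate number. On the log2 scale Eif1a minus Eif1ax was lower with CpG within each number, at 0.83, 0.65 and 0.65 against 0.91, 0.86 and 0.77. Eif5 minus Eif5b went both ways.

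**Figure D5:**
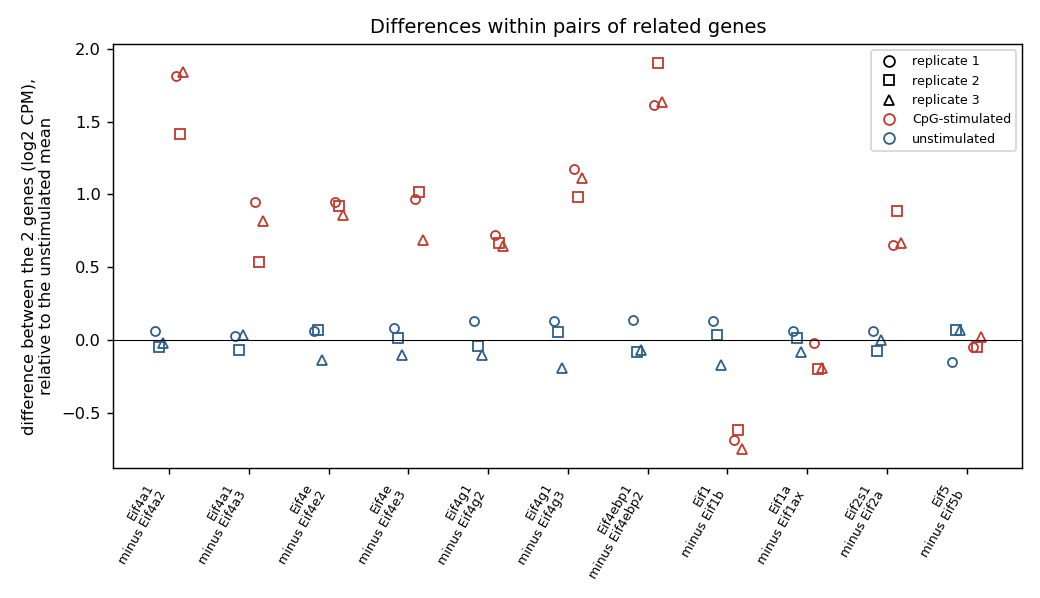
Difference in log2 CPM between the genes of each of 11 pairs in every sample, relative to the mean of the unstimulated samples. CpG-stimulated and unstimulated samples stand apart in 9 pairs, by 1.72 in Eif4ebp1 minus Eif4ebp2 and downward in Eif1 minus Eif1b, by -0.68.

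Of the 4 Argonaute genes none was raised and 3 were lowered, beside 36.7% of all genes tested, 2 of them with a log2FC under -1, beside 15.3%. Eif2c4 (Ago4), on chromosome 4 from 126489541 to 126533472 on the minus strand, was at 0.56, 0.29 and 0.84 log2 CPM with CpG and at 3.02, 3.23 and 3.32 without, worth 21.2 to 31.3 reads against 143 to 177. It fell by 2.63 (SE 0.19, limma FDR = 7.87e-07). Eif2c1 (Ago1) was at 6.36, 6.10 and 6.30 with CpG and at 7.48, 7.33 and 7.60 without, and fell by 1.21 (SE 0.09, limma FDR = 9.46e-07). Eif2c2 (Ago2), which encodes the Argonaute that cleaves its targets and was the highest of the 4 per length, fell by 0.74 (SE 0.07). Groups did not overlap in these genes. Eif2c3 (Ago3), which lies beside Ago1 and Ago4 on chromosome 4, had a log2FC of -0.02 ± 0.13 with overlapping groups.

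Summed in linear CPM, the 45 members other than Argonaute genes took 17930, 16500 and 17100 CPM with CpG and 12740, 12590 and 12160 CPM without. The ratio of the means was 1.38. All stimulated sums were above all unstimulated sums. The ratio was 1.99 for the eIF2 genes with Eif2a and Eif2d, 1.73 for eIF2B, 1.51 for the eIF4F group with its relatives and cofactors, 1.35 for Eif6 with Eif5b, 1.29 for eIF3 and 1.22 for the binders of eIF4E. It was 1.02 for the start codon group, in which Eif1 fell and the eIF1A genes rose, and 0.573 for the Argonaute genes.

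Promoter windows from RefSeq (GRCm38.p6), from 250 bases before to 50 after an annotated start, were found for 38 of the 49 members and for 8979 of the genes tested. The 11 members without a window include 4 of the 10 with a log2FC over 1 (Eif2b3, Eif4ebp1, Eif3i and Eif1a) and Eif6, so the values by motif leave out some of the members that rose most. The E-box CACGTG, which reads the same on both strands and is bound by MYC with MAX, occurred in 8 of the 38 (21.1%) and in 12.4% of all windows. These 8 include each gene of the eIF4F core. Their sequences are shown because Myc was raised in the same samples, beside those of the members with the same letters that were not raised. Each is 30 bases, 5′ to 3′ on the strand of the gene, with the E-box in capitals.
Eif4e (chr3:138527192-138527221, plus strand): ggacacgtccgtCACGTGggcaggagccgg
Eif4a1 (chr11:69672595-69672624, minus strand): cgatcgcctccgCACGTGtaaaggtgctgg
Eif4g1 (chr16:20672661-20672690, plus strand): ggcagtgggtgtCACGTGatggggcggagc
Eif4h (chr5:134639488-134639517, minus strand): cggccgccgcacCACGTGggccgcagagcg
Eif3f (chr7:108934335-108934364, plus strand): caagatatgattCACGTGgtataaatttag
Eif3k (chr7:28981915-28981944, minus strand): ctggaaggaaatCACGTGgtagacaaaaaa
Eif1b (chr9:120492570-120492599, plus strand): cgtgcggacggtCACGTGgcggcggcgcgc
Eif3a (chr19:60790654-60790683, minus strand): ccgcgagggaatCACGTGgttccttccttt

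The E-box shown lies 58 bases before the start in Eif4e, 183 in Eif4a1, 48 in Eif4g1, 90 in Eif4h, 62 in Eif3f, 38 in Eif3k and 18 in Eif1b, and after the start in Eif3a. Eif4e and Eif4g1 each hold another E-box in the window, 222 bases before the start in Eif4e and after the start in Eif4g1. These are starts of RefSeq, and those of GENCODE M21 differ. There the stretches of Eif4e, Eif4g1 and Eif1b lie inside the gene model, that of Eif4e in an exon, and the E-box of Eif3a lies before the start of the gene. Of these genes Eif4e, Eif4a1, Eif4g1 and Eif4h rose, Eif3f fell and Eif3k, Eif1b and Eif3a did not pass. The median log2FC was 0.22 over the 8 members with the E-box, of which 4 were raised, and 0.48 over the 30 without, of which 18 were raised. Over the 8979 genes tested that have a window it was 0.07 with the E-box and -0.02 without, and 42.0% and 36.7% of these genes were raised.

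Other promoter motifs were searched on both strands of the same windows. The CCAAT box was in 31.6% of the members' windows and 43.2% of all, the GC box GGGCGG in 78.9% and 69.0%, and the TATA box TATAAA in 7.89% and 8.42%. The NF-κB consensus was in 0 of the 38 windows and in 0.234% of all. A match is a run of letters and does not show binding.

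Other genes of translation formed a list of 43, of which 42 passed the filter. Of these 18 were raised (42.9%, beside 37.6% of all genes tested) and 11 were lowered (26.2%, beside 36.7%), with a median log2FC of 0.13, so the raised share was near the background. Among elongation and release genes, 5 of 11 were raised (45.5%) and 2 lowered (18.2%). Eif5a, which helps ribosomes past difficult stretches, was at 11.08, 10.73 and 10.92 log2 CPM with CpG and at 9.50, 9.36 and 9.39 without (log2FC 1.49 ± 0.09, limma FDR = 2.64e-07). Eef1e1, a scaffold of the tRNA synthetase complex, had the highest log2FC of the list at 1.84 ± 0.07, and Gspt1, the release factor eRF3a, was at 1.23 ± 0.09. Mcts2, a relative of the reinitiation factor gene Mcts1, was at 1.29 ± 0.12. Among 18 genes that help or regulate initiation 9 were raised (50%) and 5 lowered (27.8%), beside the same 37.6% and 36.7% of all genes. The lowered ones include Paip2 and Pdcd4, which encode inhibitors described below. Of 3 genes of mitochondrial initiation 1 was raised, beside 37.6% of all genes.

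The lowest log2FC of this list belonged to an eIF2 kinase. Eif2ak3, which encodes PERK, the kinase of endoplasmic reticulum stress, was at 6.13, 6.28 and 6.03 log2 CPM with CpG and at 8.70, 8.76 and 8.70 without, and fell by 2.58 (SE 0.07, limma FDR = 1.03e-08). Eif2ak1 (HRI, the heme-regulated kinase) fell by 0.27, while Eif2ak2 (PKR, the kinase for double-stranded RNA) rose by a log2FC of 1.03. Eif2ak4 (GCN2, which senses uncharged tRNA) had a log2FC of 0.23 (limma FDR = 0.0285), which was lost without stimulated sample 1 or 3 or unstimulated sample 2 or 3 (FDR from 0.0696 to 0.105). Over the eIF2 kinases and the genes around them, 3 of 10 were raised and 4 lowered (30% and 40%), near the 37.6% and 36.7% of all genes.

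Further low values came from regulators with different roles. Impact, which encodes an inhibitor of GCN2, fell by 1.49, Mknk2, a kinase of eIF4E, fell by 1.36, and Paip2, an inhibitor of the poly(A)-binding protein, had a log2FC of -1.40. Pdcd4, an inhibitor of eIF4A, fell by 1.23 (limma FDR = 8.58e-08). Atf4, whose mRNA is translated when eIF2 is phosphorylated, had a log2FC of -0.03 (limma FDR = 0.765), and Ddit3, a target of ATF4, fell by 1.08. Eif2s3y, the Y-linked partner of Eif2s3x, was at -6.58, 1.96 and 6.16 with CpG and at -6.67, -2.21 and 5.66 without, again with number 2 between the others.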

How the data were processed

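RNA-seq of 3 CpG-stimulated and 3 unstimulated samples was used. Per the paper's methods and the submitters' processing notes, the authors checked reads with FastQC 0.11.7, trimmed them with Trim Galore 0.6.5, aligned them to mm10 with STAR 2.6.1a, counted them with featureCounts (Subread 2.0.1) and deposited log2 CPM values after quantile normalization and voom. Genes that appear to have no reads in any sample are at -5.15, which with 0.5 reads added would be the worth of a library of 17.8 M reads, and numbers of reads in the text are approximations from this level. In single samples 1319 to 1509 genes lie under it, so a gene without reads in 1 sample need not be at -5.15. Totals of each sample before normalization are not given in the sources used here. Linear sums were 992384 to 1012400 CPM per sample.

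Linear models were fitted in limma (3.58.1, under R 4.3.3) with a trended empirical Bayes variance, for genes over -0.76 in at least 3 samples, with Benjamini-Hochberg adjustment. Deviations of same-numbered samples correlated at 0.435, 0.224 and 0.300 (other pairs -0.281 to 0.0279). As each was over 0.1, a fit with the number as block was added, although the labels do not tie the numbers to mice. An adjustment tied to the number could also make same-numbered samples correlate, so the correlations do not show that these samples share a mouse. Nkg7, for example, was at -5.27, -5.415 and -4.771 in numbers 1 to 3 of both groups. The source of the correlations was not tested. Positions, exon lengths and shared 75-base stretches came from GENCODE M21. The script was tested on simulated data, where a first criterion, on the share of changed genes called, was missed and was then replaced by criteria on false calls, bias and interval coverage, which were met. Values were given for members with an absolute log2FC over 1, the extremes of each group, the paired genes and members that did not pass. They were also given for the 4 highest and 4 lowest other translation genes and the eIF2 kinases. The remaining members, Pdcd4, Atf4 and Ddit3 were added after their values were seen. Members and lists were chosen with earlier results of these data known.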

Additional observations from a re-analysis of the deposited data

How the results depend on the processing

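With the fit tested against a log2FC of 0.5 (limma treat), 19 members were raised (38.8%, beside 20.6% of all genes) and 3 lowered (6.12%, beside 19.5%), fewer by construction since small changes cannot pass. In the other fits 26 to 31 were raised and 6 to 9 lowered. In those with the main filter and all samples or with single samples left out, 55.1% to 63.3% of the members were raised, beside 35% to 39.1% of all genes, and 14.3% to 18.4% lowered, beside 34.2% to 38.2%. Leaving out single samples gave 27 to 31 raised, 7 to 9 lowered, 10 to 13 over a log2FC of 1 and a median log2FC of 0.333 to 0.408. The replicate block gave 31 raised and 9 lowered (63.3% and 18.4%, beside 39.1% and 38.2% of all genes) and changed the calls of Eif5, Eif3a and Eif4g3 and of no other member. Without any filter on low values 26 were raised and 6 lowered (53.1% and 12.2%, beside 16.7% and 16.2% of all 23420 genes, unexpressed ones included), and Eif2s3x (FDR = 0.0906), Eif3h (0.0861), Eif4g2, Eif5b and Eif4ebp2 lost their calls in limma. The cause was not tested. The counts with the replicate block and without the Argonaute genes (31 raised, 6 lowered) and those without number 2 were added after the data were seen.

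Values near 0 changed sign. Eif2b4 was at -0.0053 after trimmed mean scaling and between -0.0203 and 0.0587 when single samples were left out. Leaving out single samples gave -0.034 to 0.127 for Eif2d, -0.1338 to 0.1007 for Eif2c3 and -0.1142 to 0.0438 for Eif1b. As differences of linear CPM, Eif1a minus Eif1ax changed by 65.7 and Eif5 minus Eif5b by 32.2, both upward, as they weigh the more abundant gene more. Of 840 values of 60 single genes under 14 alternatives, 778 kept their direction and side of the threshold. Count models were not run because the files hold no counts. With 3 samples a group, differences between pairs of genes could not pass an exact test.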
